A study of Mus musculus with 8 samples.

Results

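Conventional NK cells of the mouse liver were followed in 8 scRNAseq libraries, 1 library per mouse. They were 702 of 48465 kept cells (1.45%), 361 in BG and 341 in Control libraries. A barcode was taken as a conventional NK cell if it held a unique molecular identifier (UMI, a counted RNA molecule) of Ncr1 or Klrb1c, at least 2 of the 7 genes Eomes, Klra8, Klra4, Itgam, S1pr5, Cma1 and Prf1, and no UMI of Cd3e, Cd3d, Trac, Cxcr6, Itga1, Mki67, Top2a, Kdr, Cd79a or Clec4f. The members were thus selected on measured values, and the 19 genes of this gate are described here with no test.

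BG mice were female C57BL/6J mice aged 9 weeks that had received 1.2 mg of beta-glucan (BG; odetiglucan, a yeast glucan) intravenously, and their livers were collected on day 2. Control mice were untreated and otherwise alike, and the labels name no engineered allele. The livers were digested with collagenase and DNase. The libraries held CD45+ liver cells pooled with density-gradient cells of the remaining fraction. A share of cells here is thus a share of what that isolation let through. The comparison asks how the transcriptome of conventional NK cells in the BG-treated liver differs from that in the untreated liver.

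Natural killer cells are innate lymphocytes that kill infected or transformed cells by releasing perforin and granzymes, and that secrete interferon gamma and chemokines. The mouse liver holds conventional NK cells, which circulate, depend on the transcription factor Eomes and carry inhibitory Ly49 receptors of the Klra genes, beside ILC1, which stay in the tissue and carry CXCR6 and CD49a (Itga1). Conventional NK cells mature as they lose CD27 and gain CD11b (Itgam), KLRG1 and the egress receptor S1PR5, with Zeb2 and Tbx21 as drivers of the last steps.

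The deposited barcodes numbered 10745 to 27873 in BG libraries and 11984 to 16432 in Control libraries, and no barcode of a conventional NK cell was shared between libraries. BG replicate 5 stood apart, with a median of 34 detected genes per deposited barcode against 685 to 1133 in the other 7 libraries, and with 66.6% of its UMIs from mitochondrial genes. It kept 4330 cells, and the share and the counts of called genes of conventional NK cells are also given without it. Conventional NK cells had 181406 to 342764 UMIs per BG library (median 1980 to 2728 per cell) and 109152 to 301171 per Control library (median 1848.5 to 2537 per cell). No doublet caller was run, and 4 barcodes that passed the gene gate with over 2500 detected genes were left out.

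At least 2 of the 7 positive gate genes were required, and 187 cells (26.6%) had exactly 2, 199 had 3, 186 had 4, 86 had 5, 41 had 6 and 3 had all 7. Perforin (Prf1) was detected in 86.3% of members, the Ly49 receptors Klra4 and Klra8 in 55.7% and 54.4%, Eomes in 50.3% and Itgam in 37.9%. Cells with 2 gate genes, just inside the threshold, averaged 10072 CPM of Gzma (CPM is a gene's UMI count scaled to a common library total), 473 of Zeb2 and 283 of Cd3g. Cells with 1 gate gene, just outside, averaged 8852 CPM of Gzma, 134 of Zeb2 and 1040.4 of Cd3g. Of the 1179 cells that met the positive part of the gate, Cd3d was held by 14.2%, Itga1 by 12.4% and Trac by 10.9%, the most frequent grounds for exclusion.

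The label was checked against genes outside the gate, as a description. Of 12 such markers of conventional NK cells, 9 had a higher CPM in conventional NK than in ILC1-like cells in all 8 libraries. Zeb2, which drives terminal NK maturation, averaged 552 ± 91.0 CPM in conventional NK cells and 15.7 CPM in ILC1-like cells (SD, n = 8 libraries). Klrg1, an inhibitory receptor of mature NK cells, averaged 121 ± 25.0 and 5.5 CPM, and Klra7, a Ly49 receptor, 376 ± 80.0 and 9.9 CPM. Gzma, the most abundant granzyme, averaged 10031 ± 864 CPM in conventional NK cells, against 2743 CPM in ILC1-like cells. The 3 exceptions were Klrd1 (CD94), Tyrobp and Fcer1g, whose products both lineages use. ILC1 genes ran the other way, since Tnfsf10 (TRAIL) averaged 14.3 CPM in conventional NK and 282 CPM in ILC1-like cells and Il7r 15.7 against 263 CPM. The ILC1-like cells (656) were gated without the conventional NK genes, so these contrasts partly follow from the gates. Their gate also used Fcer1g, Tnfsf10, Il7r, Cd200r1 and Inpp4b, and every ILC1-like cell held a UMI of Fcer1g. The contrasts for Tnfsf10, Il7r and Fcer1g were thus shaped by that selection and are no independent check of the label.

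**Figure D1:**
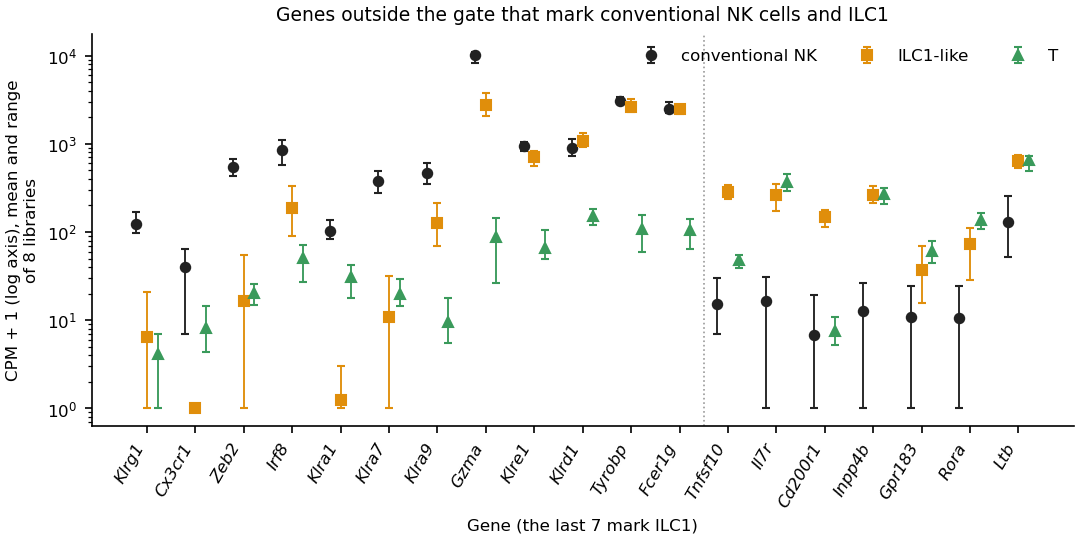
CPM + 1 on a log axis in conventional NK cells (circles), ILC1-like cells (squares) and T cells (triangles), as the mean and range of 8 libraries, for 12 markers of conventional NK cells and 7 of ILC1 that the conventional NK gate did not use. The ILC1-like gate did use Fcer1g, Tnfsf10, Il7r, Cd200r1 and Inpp4b. Zeb2, Klrg1 and Klra7 were more than 10 times as high in conventional NK as in ILC1-like cells on average, and Tnfsf10 and Il7r were far lower.

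Some members carried RNA of other cell types. Cd3g, a T cell receptor subunit that the gate did not use, had a UMI in 24 cells, and 51 cells held at least 2 of the myeloid genes Lyz2, Cst3, H2-Aa, H2-Ab1 and Cd74. The summed level of the 11 dendritic cell and monocyte markers was 583 to 1621 CPM in BG libraries and 624 to 6309 CPM in Control libraries, with the highest value in Control replicate 2. The 7 of these markers that were tested were all below 0 after BG, the direction of the 5 called lower genes, with a median log2 fold change of -1.31 and Lyz2 at -2.47 (adjusted p = 0.0826 in edgeR's quasi-likelihood test). Neither edgeR nor DESeq2 called any of them, and 5 were lower at an unadjusted p below 0.05. Summed hepatocyte markers ran from 317 to 1352 CPM in BG and from 499 to 2287 CPM in Control libraries. Of the T cell markers outside the gate, Cd4, Cd8a, Cd8b1 and Cd5 each stayed under 4 CPM on average, and Cd3g averaged 64.1 CPM. Trbc1 and Trbc2 were higher, at 258 and 190 CPM, with a UMI in 37.6% and 25.9% of members. They averaged 524 and 582 CPM in ILC1-like cells and 693 and 1130 CPM in T cells. In an alternative added after the data were seen, the cells with Cd3g or at least 2 of these myeloid genes were left out (628 cells left), and 3 genes were called higher and 5 lower, among them all 7 genes called with those cells kept.

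The share of kept cells that were conventional NK cells was 2.15%, 1.12%, 1.604% and 2.21% in BG replicates 5 to 8, against 1.64%, 0.743%, 1.23% and 1.30% in Control replicates 1 to 4. The exact 95% binomial interval of a single library, which covers counting error only, ran at its widest from 1.74% to 2.62% in BG replicate 5. The groups overlapped. The share averaged 1.77 ± 0.509% in BG and 1.23 ± 0.369% in Control mice (SD, n = 4 each), and an exact two-sided permutation test over the mice gave p = 0.2, with 0.0286 the smallest p that 4 against 4 can give. Without BG replicate 5 the difference was 0.415 percentage points (exact p = 0.343), against 0.541 with it. As a share of cells with Ncr1 or Klrb1c and none of Cd3e, Cd3d and Trac, conventional NK cells made up 19.4 ± 3.42% in BG and 14.6 ± 2.05% in Control mice (exact permutation test, n = 4 each, p = 0.0571). With mitochondrial UMIs limited to 10% the share was 2.51 ± 0.866% in BG and 1.31 ± 0.344% in Control mice, where the groups did not overlap (exact permutation test, n = 4 each, p = 0.0286). That limit left 13, 37, 11 and 29 conventional NK cells in BG replicates 5 to 8 and 42, 12, 17 and 17 in Control replicates 1 to 4. The kept cells under it were 358, 2171, 559 and 1060 in BG and 2560, 1455, 1238 and 1222 in Control libraries, in the same order.

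Cells with the proliferation genes Mki67 or Top2a were left out of the gate, so cycling was measured on the gate before that exclusion. Such cells were 16 of 109 (14.7%), 4 of 69 (5.80%), 14 of 91 (15.4%) and 14 of 140 (10.0%) in BG replicates 5 to 8. In Control replicates 1 to 4 they were 9 of 121 (7.44%), 2 of 54 (3.70%), 7 of 103 (6.80%) and 3 of 84 (3.57%). BG replicates 5, 7 and 8 lay above all 4 Control libraries, and BG replicate 6 lay between them. The share averaged 11.5 ± 4.47% in BG and 5.38 ± 2.03% in Control mice (exact permutation test, n = 4 each, p = 0.0857).

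**Figure D2:**
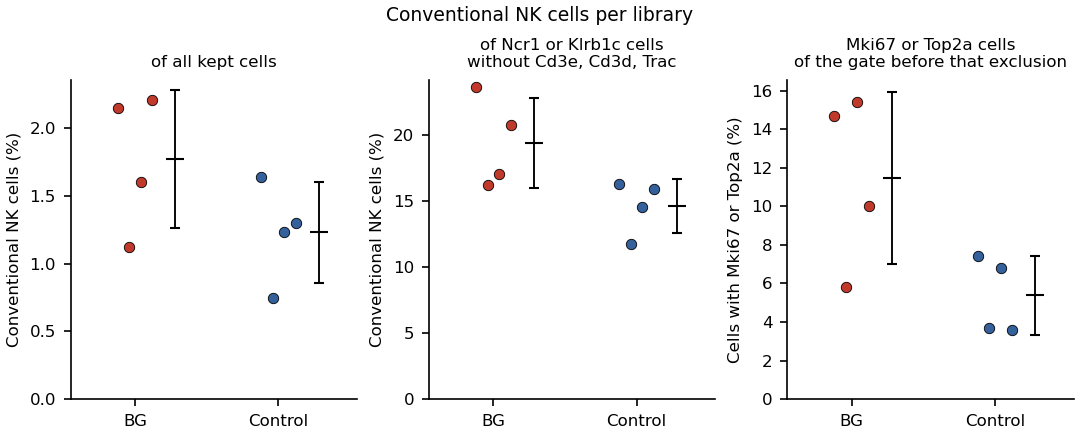
Percent of conventional NK cells among all kept cells (left), among cells with Ncr1 or Klrb1c and without Cd3e, Cd3d and Trac (middle), and percent of cells with Mki67 or Top2a in the gate before that exclusion (right). Each point is 1 library, with the mean and SD of 4 mice beside it, and the 2 groups overlap in all 3 panels.

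For expression, UMIs were summed over the conventional NK cells of each library, and edgeR's quasi-likelihood test compared BG with Control. Calls required a Benjamini-Hochberg adjusted p below 0.05 and a log2 fold change of more than 0.5 in either direction. After BG, conventional NK cells had more granzyme B RNA and less RNA of the AP-1 transcription factors Fos, Fosb, Jun and Jund and of Klf2. Whether the digestion or handling of the livers contributed to these differences was not tested. Of 2695 genes tested, 2 were called higher (0.0742%) and 5 lower (0.186%). Fold changes were centred near 0, with a median log2 fold change of -0.004, and 314 genes had an unadjusted p below 0.05. The groups did not overlap for any of the 7 called genes, as was the case for 88 genes in the higher direction (3.27% of those tested) and 58 in the lower (2.15%).

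Gzmb (ENSMUSG00000015437; GRCm38 chr14:56258838-56262260, minus strand) encodes granzyme B, a granule protease that triggers apoptosis in target cells. Its level was 1476, 1155, 1624 and 1078 CPM in BG replicates 5 to 8, against 766, 688, 678 and 821 CPM in Control replicates 1 to 4. Every BG library lay above every Control library, and the log2 fold change was 0.84 ± 0.13 (SE; edgeR's quasi-likelihood test, adjusted p = 0.00206). The call held without each of the 8 libraries in turn, with adjusted p from 0.000569 to 0.0298.

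The difference was also visible per cell. After each cell was thinned to 1500 UMIs, which left out 42 BG and 54 Control cells, Gzmb was detected in 65.0 ± 5.16% of conventional NK cells in BG and 43.3 ± 6.93% in Control mice (SD, n = 4 each). Unthinned, the pooled shares were 74.0% and 51.0%. The groups did not overlap, and an exact permutation test gave p = 0.0286 (0.176 after Benjamini-Hochberg adjustment over 37 genes). In B cells, taken as a cell type that should lack granzyme B, Gzmb was detected in 0.715% of thinned BG and 0.571% of thinned Control cells, where the median depth before thinning was 1887 and 1838.5 UMIs, against 2430 and 2093 UMIs in conventional NK cells.

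Coro2a (chr4:46536937-46602202, minus strand) encodes a coronin, a family of actin-binding proteins. It stood at 176, 156, 177 and 185 CPM in BG libraries, against 102, 42.3, 65.4 and 101 CPM in Control libraries. The log2 fold change was 1.05 ± 0.23 (SE; edgeR's quasi-likelihood test, adjusted p = 0.0339). The call rested on 145 UMIs in BG and 59 in Control cells, and it held in 2 of the 8 fits that left out a library, those without Control replicate 1 and without Control replicate 4. DESeq2 did not call Coro2a.

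Of the 5 lower genes, 4 code for subunits of the transcription factor AP-1, which cells switch on within minutes of a stimulus. Fos (chr12:85473890-85477273, plus strand) was at 1057, 916, 999 and 994 CPM in BG libraries, against 1553, 2191, 1510.2 and 1244 CPM in Control libraries. Its log2 fold change was -0.69 ± 0.13 (SE; edgeR's quasi-likelihood test, adjusted p = 0.0183). The 4 BG libraries were close together and all below the lowest Control library.

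Jund (chr8:70698949-70700616, plus strand), the most abundant of the 4, was at 1348, 1467, 1488 and 1457 CPM in BG libraries, against 2279, 1905, 2105 and 1964 CPM in Control libraries (log2 fold change -0.52 ± 0.11, adjusted p = 0.0222 in edgeR's quasi-likelihood test). Jun (chr4:95049034-95052222, minus strand) was at 838, 934, 953 and 1071 CPM in BG, against 1415, 1493, 1576 and 1149 CPM in Control libraries (-0.56 ± 0.12, adjusted p = 0.0339, same test). Fosb (chr7:19302696-19310051, minus strand), a close relative of Fos, was at 680.1, 539, 716 and 782 CPM in BG, against 948, 1408, 1195 and 821 CPM in Control libraries (-0.65 ± 0.15, adjusted p = 0.0491, same test). In all 3 genes the highest BG library lay below the lowest Control library, and for Jun and Fosb, where the gap was small, that library was Control replicate 4.

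Klf2 (chr8:72319033-72321656, plus strand) encodes a zinc finger factor that keeps lymphocytes quiescent and sustains the egress receptors. It was at 1178, 958, 868 and 1148 CPM in BG libraries, against 1542, 1323, 1807 and 1598 CPM in Control libraries. The log2 fold change was -0.60 ± 0.12 (SE; edgeR's quasi-likelihood test, adjusted p = 0.0222). Of the 8 fits that left out a library, Fos and Klf2 were called in 5 each, Fosb and Jund in 3 each and Jun in 2. Without BG replicate 5, 1 gene was called higher (Gzmb) and 2 lower (Fos and Klf2), and without BG replicate 6 or BG replicate 7 only Gzmb was called. With DESeq2, 5 genes were called higher and 8 lower, the 5 lower genes named here and Gzmb among them. Without BG replicate 8 the counts were 10 higher and 9 lower, and without Control replicate 4 they were 11 higher and 6 lower. For the fit on cells thinned to 1500 UMIs, the gate was applied again after thinning. Among those cells edgeR called no gene of 1239 tested (81 higher and 60 lower at an unadjusted p below 0.05). Gzmb was at 0.77 there, with adjusted p = 0.0556. The lower genes stayed below 0 there but nearer to it, with Fos at -0.50 (adjusted p = 0.206), Fosb at -0.53 (0.206), Klf2 at -0.45 (0.115), Jund at -0.45 (0.115) and Jun at -0.34 (0.391). With mitochondrial UMIs limited to 10% it called none of 504 (20 higher and 29 lower at an unadjusted p below 0.05), and DESeq2 was run in neither setting.

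**Figure D3:**
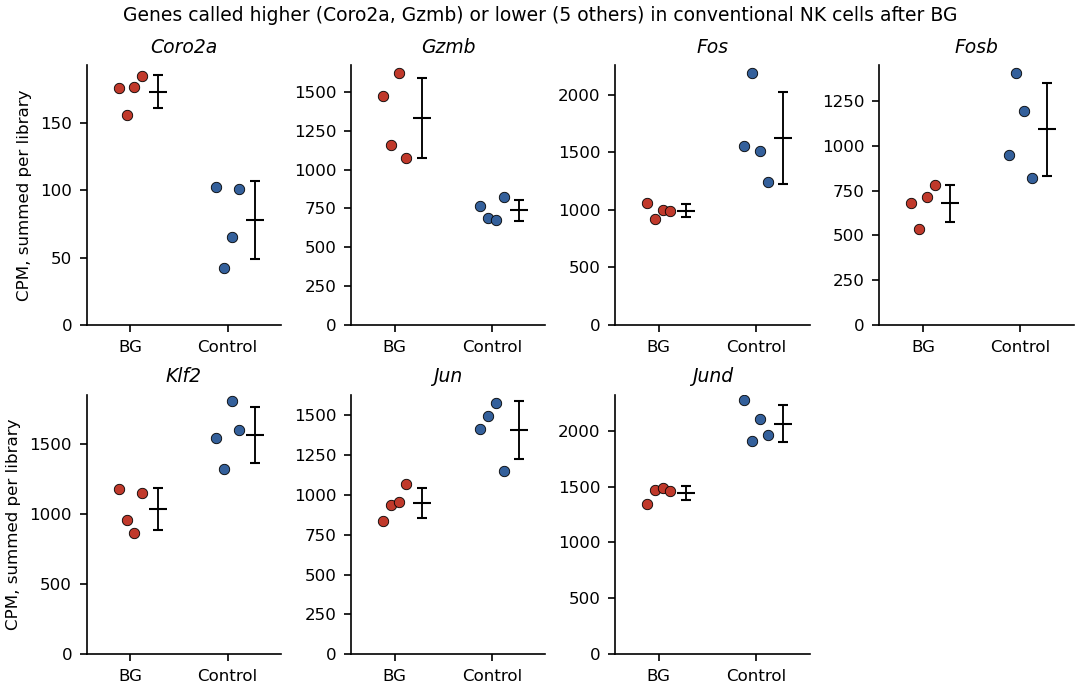
CPM of the 7 called genes, summed over the conventional NK cells of each library, with BG left of Control; each point is 1 library and the bar gives the mean and SD of 4 mice. In each panel the BG libraries lie wholly above (Coro2a, Gzmb) or wholly below (Fos, Fosb, Klf2, Jun, Jund) the Control libraries.

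The starts of Gzmb, Fos and Jun are shown because short motifs of the AP-1 and CREB families lie close to them and 4 of the called genes encode AP-1 subunits. Each window runs from 250 bases before to 50 bases after the RefSeq start (GRCm38.p6) on the gene's own strand, and was searched on both strands for TGANTCA, TGACGTCA, TGACATCA, the shorter TGACGT (which TGACGTCA contains) and the CArG box. Capitals mark the matches. The Gzmb window is chr14:56262285-56262584 (minus strand), that of Fos chr12:85473640-85473939 (plus strand) and that of Jun chr4:95052173-95052472 (minus strand).
Gzmb: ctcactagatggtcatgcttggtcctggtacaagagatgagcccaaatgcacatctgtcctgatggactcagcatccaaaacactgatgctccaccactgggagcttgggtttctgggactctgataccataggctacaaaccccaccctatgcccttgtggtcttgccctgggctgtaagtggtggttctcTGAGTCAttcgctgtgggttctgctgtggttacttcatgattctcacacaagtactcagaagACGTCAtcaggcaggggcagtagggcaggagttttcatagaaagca
Fos: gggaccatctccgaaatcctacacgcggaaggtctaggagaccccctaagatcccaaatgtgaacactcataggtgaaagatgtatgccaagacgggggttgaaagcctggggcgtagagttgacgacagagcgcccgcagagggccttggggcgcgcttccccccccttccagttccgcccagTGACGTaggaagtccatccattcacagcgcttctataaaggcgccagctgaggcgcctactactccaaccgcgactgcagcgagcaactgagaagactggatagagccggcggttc
Jun: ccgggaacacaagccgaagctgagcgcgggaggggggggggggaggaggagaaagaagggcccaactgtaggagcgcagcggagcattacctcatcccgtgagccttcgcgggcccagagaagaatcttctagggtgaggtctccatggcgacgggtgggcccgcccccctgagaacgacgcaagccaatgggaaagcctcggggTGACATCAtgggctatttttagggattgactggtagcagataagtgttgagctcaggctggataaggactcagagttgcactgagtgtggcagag
The TGAGTCA of Gzmb began 58 bases before the start, its TGACGT 4 bases after, the TGACGT of Fos 66 bases before and the TGACATCA of Jun 45 bases before. Of all 32851 promoter windows, 7.81% held TGANTCA, 3.62% TGACATCA, 7.51% TGACGT, 1.79% TGACGTCA and 1.63% a CArG box, and 19.4% held at least 1 of these, as did 3 of the 7 called genes. The windows searched for Coro2a, Fosb and Klf2 held none of these letters. Nor did the window for Jund, which RefSeq places upstream of the GENCODE start given here, so the bases around that start were not searched.

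Among cytotoxic genes calls were few. Of 11 granule genes tested, 1 (Gzmb) was called higher and none lower, with 6 above 0 and a median log2 fold change of 0.04. At an unadjusted p below 0.05, 3 were higher and 0 lower. Gzma was at 10151 ± 505 CPM in BG and 9911 ± 1203 CPM in Control mice (SD, n = 4 each; log2 fold change 0.04 ± 0.12 SE, adjusted p = 0.955 in edgeR's quasi-likelihood test). Serpinb9, the serpin that protects killer cells from their own granzyme B, was at 468, 389, 368 and 483 CPM in BG libraries, against 306, 275, 303 and 359.97 CPM in Control libraries. Its groups did not overlap, but it did not pass the test (0.45, adjusted p = 0.231). Serpinb9, Klf6, Btg2, Nr4a1, Fosl2, Egr1, Psme2, Sdf2l1, Manf, Rnf213 and the heat shock and replication genes named below were chosen after their values were seen.

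Secreted factors stayed below the test. None of the 8 tested effector cytokines and death ligands was called by edgeR or by DESeq2, and 2 had an unadjusted p below 0.05, Xcl1 and Ccl4. Ifng, the signature cytokine of NK cells, averaged 462 ± 138 CPM in BG and 440 ± 59.3 CPM in Control mice (SD, n = 4 each; log2 fold change 0.06 ± 0.18 SE). The chemokine Ccl4 was at 3394 CPM in BG replicate 5, 2694 in replicate 6, 3521 in replicate 7 and 1991 in replicate 8, against 2464, 2414, 1754 and 2109 CPM in Control libraries (0.40 ± 0.14, adjusted p = 0.256 in edgeR's quasi-likelihood test). BG replicate 8 lay within the Control range, and without it Ccl4 and Xcl1 were called higher. Ccl5 averaged 12942 ± 1191 CPM in BG and 15307 ± 1427 CPM in Control mice (-0.24 ± 0.12, adjusted p = 0.436), and Ccl3 1706 ± 313 and 1523 ± 398 CPM (0.18 ± 0.14, adjusted p = 0.655).

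The maturation state showed no shared direction. Of 18 genes of late maturation, 1 rose (Gzmb) and 1 fell (Klf2), with a median of 0.16, and of 11 genes of early maturation none was called by edgeR or DESeq2, with 2 higher and 3 lower at an unadjusted p below 0.05. Cd27, which marks immature NK cells, was at 36.4, 47.9, 55.5 and 53.7 CPM in BG libraries, against 72.9, 74.1, 113 and 63.2 CPM in Control libraries. The groups did not overlap at these low counts (41 and 56 UMIs in all), and the test was not passed (-0.70 ± 0.30, adjusted p = 0.3504 in edgeR's quasi-likelihood test). Zeb2 averaged 496.5 ± 51.3 CPM in BG and 607 ± 92.8 CPM in Control mice, Klrg1 109 ± 16.5 and 133 ± 28.6 CPM and Tbx21 161 ± 15.1 and 137 ± 16.2 CPM (SD, n = 4 each), and none of them was called.

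Receptors likewise had no called member. This held for the 4 tested Ly49 genes, the 8 of the CD94, NKG2 and checkpoint list, the 15 activating receptors and adaptors and the 12 cytokine receptors, in edgeR and in DESeq2. At an unadjusted p below 0.05 these lists had 0, 2, 1 and 0 members, all lower. Members carried 2.35 ± 0.15 of 6 Ly49 genes per cell in BG and 2.18 ± 0.12 in Control mice (SD, n = 4 each), counting the gate genes Klra4 and Klra8. Klrk1, which encodes the activating receptor NKG2D, averaged 712 ± 72.3 CPM in BG and 843 ± 58.4 CPM in Control mice (-0.25 ± 0.12, adjusted p = 0.437 in edgeR's quasi-likelihood test), without overlap. Il2rb, the shared receptor chain for interleukins 2 and 15, averaged 1205 ± 98.6 and 1045 ± 46.5 CPM (0.21 ± 0.11, adjusted p = 0.452), also without overlap. Il18rap averaged 305 ± 54.6 and 360 ± 93.0 CPM, Cd69 342 ± 74.6 and 347 ± 137 CPM and Ly6c2 525 ± 94.9 and 439 ± 71.6 CPM in BG and Control mice.

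The immediate early list held most of the called genes. Of 20 members tested, 4 fell (Fos, Fosb, Jun and Jund), none rose and 17 were below 0, with a median log2 fold change of -0.37 against -0.004 over all tested genes. Klf6, another factor induced early, was at 516, 665, 494 and 668 CPM in BG libraries, against 820.3, 656, 1005 and 998 CPM in Control libraries (-0.58, adjusted p = 0.0862 in edgeR's quasi-likelihood test). Btg2, an antiproliferative gene, averaged 701 CPM in BG and 959 CPM in Control mice (-0.46, adjusted p = 0.121) without overlap. Above 0 were Fosl2, Egr1 and Nr4a1, the last of which marks recent receptor signalling (0.43, adjusted p = 0.536). The summed level of the listed genes was 10335 to 11722 CPM in BG and 12694 to 15487 CPM in Control libraries.

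**Figure D4:**
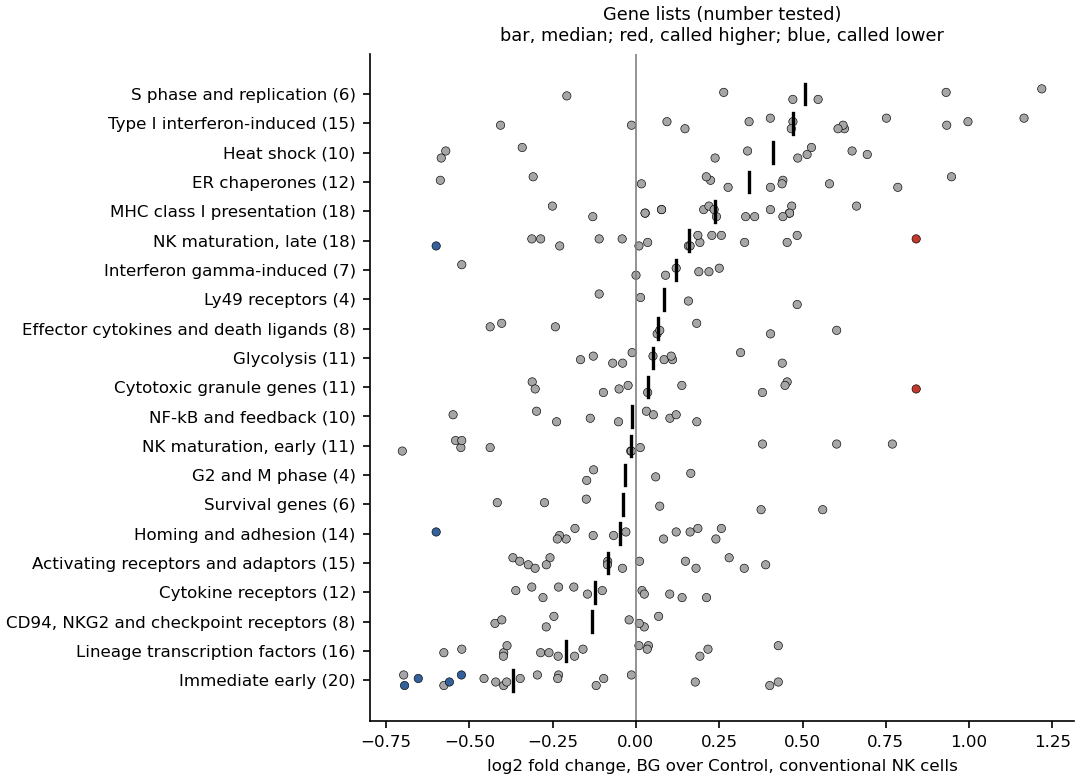
Log2 fold change (BG over Control) of each tested member of 21 gene lists in conventional NK cells, with the number tested in brackets and the median as a bar; lists are ordered by median. Immediate early genes have the lowest median (-0.37), and the called members are Gzmb (higher) and Fos, Fosb, Jun, Jund and Klf2 (lower).

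Type I interferon induces a broad antiviral gene programme in most cells. In conventional NK cells 15 of 48 such genes in the files had enough counts to be tested, and none was called by edgeR or DESeq2, while 8 were higher and 0 lower at an unadjusted p below 0.05. Of the 15, 13 were above 0, and their median log2 fold change was 0.47. The summed level of all listed genes was 3012, 2305, 2794 and 2259 CPM in BG libraries and 1703, 1651, 1843 and 1655 CPM in Control libraries, with no overlap.

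Single interferon genes were sparse in these cells. Isg15, a ubiquitin-like modifier, had 48 UMIs in all BG and 8 in all Control cells, that is 91.1, 18.0, 106 and 30.2 CPM in BG libraries against 18.2, 10.6, 11.9 and 0 CPM in Control libraries (exact permutation test, p = 0.0571, 0.114 after adjustment over the 6 fixed genes that were too low to be tested). Irf7, the factor that amplifies the response, had 47 and 25 UMIs (exact p = 0.0571, adjusted 0.114), and Fcgr3, the antibody receptor CD16, 19 and 32 UMIs (exact p = 0.0286, adjusted 0.114). Cx3cr1, Ly6a and Jaml, the other 3, had exact p of 0.429, 0.8 and 0.943. Without a filter on low counts, Isg15 and Ifi27l2a passed the test.

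Ifi27l2a was low in conventional NK cells beside T and B cells. Its level in conventional NK cells was 158, 120, 121 and 26.9 CPM in BG libraries, against 0, 95.3, 11.9 and 114 CPM in Control libraries (1.16 ± 0.56, adjusted p = 0.425 in edgeR's quasi-likelihood test), with overlap. In T cells it averaged 1789 ± 431 CPM in BG and 382 ± 63.1 CPM in Control mice, and in B cells 1836 ± 567 and 396 ± 112 CPM (SD, n = 4 each). In cells thinned to 1500 UMIs it was detected in 7.10 ± 2.96% of conventional NK cells in BG and 4.18 ± 3.50% in Control mice, against 75.1% and 30.8% of B cells. ILC1-like cells had a low level as well, at 160 and 40.7 CPM. The part of free RNA in these low values was not tested. The log2 response of Ifi27l2a in conventional NK cells lay 0.89 below that in ILC1-like and 1.02 below that in T cells. Neither difference was called (edgeR interaction test with the mouse as a block, adjusted p = 0.844 and 0.677).

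Antigen presentation and protein folding genes lay mostly above 0. Of 18 MHC class I presentation genes none was called by edgeR or DESeq2, 16 were above 0 (median 0.24) and 6 were higher and 0 lower at an unadjusted p below 0.05. Psme2, a subunit of the PA28 proteasome activator, was at 364, 281, 358 and 255 CPM in BG libraries, against 201, 191, 178 and 215 CPM in Control libraries (0.66, adjusted p = 0.100), with no overlap. Of 12 tested ER chaperones, 10 were above 0 (median 0.34), and 7 were higher and 0 lower at an unadjusted p below 0.05, among them Sdf2l1 (0.95) and Manf (0.79), but none was called by edgeR or DESeq2.

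Heat shock genes had 7 of 10 tested members above 0, without a call by edgeR. Hsp90ab1, a constitutive HSP90, was at 2739, 2467, 2936 and 2625 CPM in BG libraries, against 1407, 2181, 1736 and 2292 CPM in Control libraries (0.51, adjusted p = 0.0862 in edgeR's quasi-likelihood test, called by DESeq2). The stress-inducible Hspa1b was at 243, 186, 298 and 419.6 CPM in BG libraries, against 168, 169, 589 and 827 CPM in Control libraries (-0.57, adjusted p = 0.492). Control replicates 1 and 2 lay below every BG library and Control replicates 3 and 4 above, so the negative fold rests on the last 2. Hspa1a averaged 167 CPM in BG and 259 CPM in Control mice (-0.58, adjusted p = 0.306), with overlap. Of the 10 tested members 0 were called by edgeR, with 6 higher and 1 lower at an unadjusted p below 0.05 and a median of 0.41. Ribosomal protein genes, a group described after their values were seen, summed to 222004, 218733, 238246 and 209614 CPM in BG libraries and 182091, 195957, 189444 and 211177 CPM in Control libraries. Of 79 tested, 75 were above 0 (median 0.19), and none was called by edgeR or DESeq2 (29 higher and 0 lower at an unadjusted p below 0.05).

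Replication genes could be read only in part, since the gate removed cells with Mki67 or Top2a. Of 6 tested S phase genes none was called by edgeR or DESeq2, 5 were above 0 (median 0.51), and 3 were higher at an unadjusted p below 0.05. Stmn1, a microtubule regulator of dividing cells, was at 103, 65.9, 116 and 104 CPM in BG libraries, against 25.5, 42.3, 59.5 and 50.5 CPM in Control libraries (1.22, adjusted p = 0.0907), and the helicase gene Mcm6 at 152, 95.8, 141 and 104 CPM, against 62.0, 74.1, 41.6 and 82.1 CPM (0.93, adjusted p = 0.132). When cells with Mki67 or Top2a were kept, 46 genes were called higher and 14 lower, with Mcm2, Mcm3, Mcm4, Mcm6, Mcm7, Pcna and Stmn1 among the higher ones and all 7 called genes again called.

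In the remaining functional lists 1 gene passed the test, Klf2. None of 10 tested NF-kB genes (median -0.01), 7 interferon gamma-induced genes (0.12), 16 lineage transcription factors (-0.21), 11 glycolysis genes (0.05), 6 survival genes (-0.04) and 4 G2 and M phase genes (-0.03) was called by edgeR, and at an unadjusted p below 0.05 they had 0, 1, 1, 1, 2 and 0 members. DESeq2 called 1 of the lineage factors, Klf6, and none of the others. Of 14 homing and adhesion genes 1 fell (Klf2), with a median of -0.05. Cholesterol synthesis genes were too low to be tested.

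Conventional NK cells were set beside ILC1-like cells (656) and T cells (7028) of the same mice, which share the mice and the treatment. In ILC1-like cells 21 of 2828 genes were called higher (0.743%) and 4 lower (0.141%), and in T cells 116 of 9411 were called higher (1.23%) and 17 lower (0.181%). Gzmb was called higher in both, at log2 fold changes of 0.70 in ILC1-like and 1.01 in T cells, beside 0.84 in conventional NK cells. Coro2a, at 1.05 in conventional NK cells, was at 0.26 in ILC1-like and 0.16 in T cells and was called in neither. Its difference of response was not called (edgeR interaction test, adjusted p = 0.692 and 0.0888). The 5 genes that fell in conventional NK cells were below 0 in both other gates, with 5 called in T and 2 in ILC1-like cells. In B cells, described with no test, Fos averaged 901 CPM in BG and 1428 CPM in Control mice, and Jund 1646 and 2427 CPM. Fosb averaged 582 and 908 CPM there, Jun 660 and 1122 CPM and Klf2 1762 and 2364 CPM. The difference of response for these 5 genes lay between -0.11 and 0.22 against ILC1-like cells and between -0.07 and 0.10 against T cells on the log2 scale, and the smallest adjusted p was 0.914 and 0.987 (edgeR interaction test with the mouse as a block).

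Of the 14 type I interferon genes tested in all 3 gates, 0 were called in conventional NK, 8 in ILC1-like and 10 in T cells, with median log2 fold changes of 0.47, 0.97 and 0.57. UMIs summed per library ran from 109152 to 342764 in conventional NK, 140294 to 547460 in ILC1-like and 2031534 to 3975041 in T cells. The ranges of conventional NK and ILC1-like cells overlapped, and T cells lay far above both. Counts of calls here and above were thus not made at equal depth, with the larger gap to T cells. The response in conventional NK cells was below that in both other gates for 10 of the 14. The difference itself was called for none of the 15 genes that entered each interaction test, with smallest adjusted p of 0.112 against ILC1-like and 0.326 against T cells (edgeR). Both smallest values were those of Rnf213, a large ubiquitin ligase, whose response was 0.09 in conventional NK, 1.62 in ILC1-like and 1.13 in T cells.

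**Figure D5:**
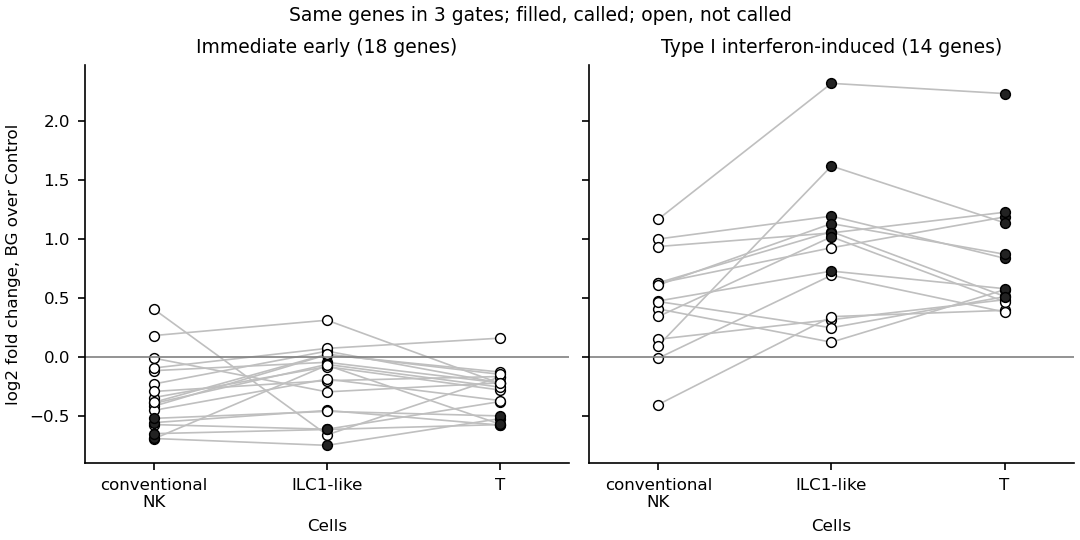
Log2 fold change (BG over Control) of immediate early genes (left, 18 genes) and type I interferon-induced genes (right, 14 genes) in conventional NK, ILC1-like and T cells, with a line per gene; filled points passed the test. Immediate early genes lie mostly below 0 in all 3 gates. The highest interferon-induced gene in each gate is Ifi27l2a, at 2.32 in ILC1-like, 2.23 in T and 1.16 in conventional NK cells, and its difference of response was not called.

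Across all genes, the response differed between conventional NK and T cells for 5 of 8605 genes (0.0581%). The chemokine genes Ccl4 and Xcl1 had a higher response in conventional NK cells, by 1.05 ± 0.14 and 0.84 ± 0.15 on the log2 scale (SE; edgeR interaction test, adjusted p = 3.32e-08 and 0.000678). Xcl1, which attracts cross-presenting dendritic cells, was at 1172, 868, 1236 and 507 CPM in conventional NK cells of BG libraries, against 853, 572, 422 and 562 CPM in Control libraries, and averaged 256 ± 42.9 and 297 ± 29.1 CPM in T cells of BG and Control mice. Ccl4 averaged 67.9 ± 26.6 and 100.5 ± 20.9 CPM in T cells. Against ILC1-like cells, the Ccl4 response differed by 0.48 (adjusted p = 0.0560), under the size required for a call.

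The other 3 genes had a lower response in conventional NK than in T cells. These were the myeloid lysozyme gene Lyz2 (-3.43), the immunoglobulin gene Igkc (-3.13) and the lysosomal gene Psap (-0.93), with adjusted p of 3.99e-10, 9.37e-05 and 0.00404 in the edgeR interaction test. Lyz2 was also the 1 gene of 3373 (0.0296%) whose response differed from that of ILC1-like cells (-4.22, adjusted p = 0.0202). Its UMIs came from few cells, with 78 in 1 cell of Control replicate 4, 20 of 21 in 1 cell of Control replicate 1, 18 of 20 in 1 cell of Control replicate 2 and 15 of 16 in 1 cell of BG replicate 7. Without Control replicate 4 or without BG replicate 8, Lyz2 was no longer called against ILC1-like cells. Against T cells, Igkc lost its call without BG replicate 5, Psap without BG replicate 8 or Control replicate 1, and Xcl1 without Control replicate 3, and in cells thinned to 1500 UMIs Ccl4 and Xcl1 kept theirs while the other 3 did not. The count of 5 was 9 without BG replicate 5, 10 without BG replicate 7, 8 without BG replicate 8, 9 without Control replicate 3, and 16 without Control replicate 1 or Control replicate 4. In conventional NK cells Igkc stayed at 10 to 43 CPM in BG and 13 to 58 CPM in Control libraries. In T cells it averaged 336 ± 634 CPM in BG (range 8.37 to 1287) and 45.2 ± 19.1 CPM in Control mice (range 17.9 to 59.9).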

How the data were processed

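The authors prepared 1 droplet library (10x 3' chemistry) per liver and deposited UMI counts per gene and barcode, made per the file headers with Cell Ranger 6.1.2 on the mouse build mm10 with intronic reads included. The annotation release is not given in the sources used here. Depth per library is in the report, and counting intervals cover counting error only.

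Barcodes with 200 to 2500 detected genes and at most 30% mitochondrial UMIs were kept, and cells were gated by genes rather than clustered. Counts were summed per library and gate and filtered for low counts. The 4 BG and 4 Control libraries were compared with edgeR 4.0.16 (TMM scaling, quasi-likelihood test, Benjamini-Hochberg adjustment, log2 fold change beyond 0.5) in R 4.3.3, and differences of response between gates were tested with the mouse as a block. DESeq2 1.42.0, other size factors, no count filter, other gates, cells thinned and then gated again, a 10% mitochondrial limit and leaving out each library were alternatives. Shares were compared with exact two-sided permutation tests (scipy 1.17.1). The labels tie each library to its own sample, so p-values measure the spread between these libraries.

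The members and gene lists were chosen with earlier results of these data known. Genes named are, by rule, the called genes of largest change with no overlap between groups and a mean of at least 50 CPM (up to 12 higher and 8 lower), up to 3 called genes of each list, and 24 genes whatever their values, of which 2 are not reported here. Others are said in the report to have been chosen after their values were seen. Tested on simulated counts for the comparison of conventional NK cells (2695 genes), the edgeR step recovered 18% of genes changed 1.5-fold, 76% of those changed 2-fold, 96% of those changed 3-fold and 100% of those changed 4-fold, with 4 of 2495 unchanged genes called. Gene positions are from GENCODE on GRCm38, and promoter windows from RefSeq.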

Additional observations from a re-analysis of the deposited data

Results flagged for a closer look

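In 6 of 84 groups of 4 libraries, 1 library lay far from the other 3 (the gap to its neighbour over the whole range passed Dixon's 95% critical value), and chance flags about 1 in 20 groups. Gzma was highest in BG replicate 5 (10906 CPM, others 9856 to 9962), and Ccl5 lowest in BG replicate 6 (11159 CPM, others 13472 to 13644). Jaml, an adhesion molecule, was highest in Control replicate 2 (63.5 CPM, others 0 to 6.32). Among marker sums, hepatocyte genes were highest in Control replicate 2 (2287 CPM, others 499 to 743), ILC1 genes lowest in BG replicate 5 (182 CPM, others 269 to 282) and Kupffer cell genes highest in BG replicate 7 (363 CPM, others 11.97 to 67.1).

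The response to BG differed between conventional NK and T cells, in a test of the difference itself, for Ccl4 (1.05), Xcl1 (0.84), Psap (-0.93), Igkc (-3.13) and Lyz2 (-3.43), and between conventional NK and ILC1-like cells for Lyz2 (-4.22), all on the log2 scale.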

How the results depend on the processing

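No paired analysis was possible because the replicate numbers of BG (5 to 8) and Control (1 to 4) do not overlap. The counts of genes called higher and lower were 2 and 5, against 5 and 8 with DESeq2, 20 and 16 without a count filter, 12 and 7 with at least 3 gate genes, 9 and 8 without Prf1 in the gate, 46 and 14 with cycling cells kept, and 0 and 0 with thinned cells or a 10% mitochondrial limit. Leaving out 1 library gave 1 to 11 higher and 0 to 9 lower. The difference in share (0.541 percentage points) ran from 0.379 to 0.757 without 1 library and was 1.20 at the 10% limit (exact p = 0.0286). Genes whose response differed from ILC1-like cells numbered 1 (2 without a count filter, 0 with thinned cells, 1 to 2 without 1 library), and from T cells 5 (13 without a count filter, 3 with thinned cells, 5 to 16 without 1 library). The cause of these changes was not tested, though the thinned cells and the 10% limit left 1239 and 504 genes to test in conventional NK cells.

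Of 22 named genes tested, 16 kept their sign under every alternative run. Signs turned for 6 genes, none of them called: Gzma (-0.0103 with at least 3 gate genes), Ifng (-0.0614 thinned), Klrg1 (0.0025 thinned), Tbx21 (-0.0597 without cells holding Cd3g or myeloid genes, added after the data were seen), Il2rb (-0.0878 at the 10% limit) and Cd69 (0.0430 without a count filter, 0.0064 without Prf1 in the gate). Without 1 library, Gzma ran from -0.0429 to 0.0935, Ifng from -0.0507 to 0.248 and Cd69 from -0.19 to 0.23. Low counts limit single genes, as for Isg15 with 8 UMIs in Control cells.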

Other observations

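Ly6a, an interferon-inducible surface antigen, averaged 25.4 CPM in conventional NK cells of BG and 27.6 CPM of Control mice, against 538 and 278 CPM in T cells of the same mice.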
